A study of Mus musculus with 2 samples.

Results

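Monocytes were picked out of CD45+ immune cells of the mouse cecum by the genes they express, and 316 of 19571 tagged cells (1.61%) were selected. A cell was a member when it held at least 1 UMI (unique molecular identifier, 1 counted RNA molecule) of Csf1r, the receptor for macrophage colony-stimulating factor, and at least 1 UMI of any of Ly6c2, F13a1, Thbs1, Vcan and Chil3, counted together. It also had to hold at most 2 UMIs of the complement genes C1qa, C1qb and C1qc, which mark resident macrophages, and none of Flt3, Xcr1, Clec9a, Cd209a, Siglech, Cd79a, Cd3e, Cd3d or Cd3g, which mark dendritic cells, B cells and T cells. The members were thus chosen on measured values, and the levels of these rule genes are given below as a description only.

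The study set 2 Trpv1-ADC mice beside 2 CTRL mice, all male and 101 days old. All 4 had received an adeno-associated virus (AAV) intraperitoneally as newborns and later clozapine-N-oxide (CNO), a ligand for designer receptors, every other day for 7 injections. Both Trpv1-Cre.B6 and Trpv1-WT.B6 mice were used; the labels do not assign these strains to animals, so strain and group cannot be told apart. Trpv1 encodes the capsaicin-gated cation channel of pain-sensing neurons, and 1 Trpv1 UMI was found in all members together, in CTRL 1. The 4 mice were pooled in 1 droplet run, so that each mouse is known only from the 15-base hashtag oligo on its cells, shown here because every group comparison rests on them:

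Trpv1-ADC 1, hashtag 7: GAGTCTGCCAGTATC

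Trpv1-ADC 2, hashtag 9: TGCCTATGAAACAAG

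CTRL 1, hashtag 1: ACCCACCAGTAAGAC

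CTRL 2, hashtag 3: CTTGCCGCATGTCAT

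Monocytes arise in the bone marrow and circulate in blood. In the gut wall, Ly6C-high monocytes that arrive through the chemokine receptor CCR2 lose Ly6C, gain MHC class II and become the C1q-expressing macrophages of the lamina propria. They take up microbes and debris, carry lysozyme, and respond quickly to damage, cytokines and signals from nerves.

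The deposited tables held 23063 barcodes and 174231251 UMIs, and the tagged cells numbered 4758 and 5041 in the Trpv1-ADC mice and 5119 and 4653 in the CTRL mice. The members' summed libraries held 442307 and 450698 UMIs in Trpv1-ADC mice and 788297 and 675973 UMIs in CTRL mice. The median member had 7368.5 and 7743 UMIs in Trpv1-ADC mice and 6414 and 7445.5 UMIs in CTRL mice. The median mitochondrial share was between 1.95% and 2.18% in the 4 mice. The doublet caller Scrublet marked 1.79% and 3.28% of members in Trpv1-ADC mice and 6.31% and 5.68% in CTRL mice. The median count of a member's own hashtag was 175 and 282 in Trpv1-ADC mice and 988 and 441 in CTRL mice, so the assignment of cells rested on fewer tag counts in the Trpv1-ADC mice.

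The members expressed myeloid genes that the rule had not used. After each cell was thinned to 2000 UMIs, which left out 9 members of CTRL 1 and 2 of CTRL 2, at least 1 UMI of Lyz2, the myeloid lysozyme, was seen in 89.3% and 95.1% of members in Trpv1-ADC mice and 96.1% and 91.9% in CTRL mice. The share was 2.87% and 3.78% in B cells of Trpv1-ADC mice and 5.60% and 5.52% in B cells of CTRL mice, which should lack the gene; whether free RNA or doublets gave these UMIs was not tested. Without thinning, these shares were between 89.3% and 96.7% in members and between 9.12% and 13.4% in B cells. Ccr2 was seen, after thinning, in 67.9% and 70.5% of members in Trpv1-ADC mice and 65.7% and 58.1% in CTRL mice, against 1.08% to 1.93% of B cells. C1q macrophages of the same mice, thinned alike, had Lyz2 in 89.1% to 100% and Ccr2 in 45.7% to 60.9% of cells. Both genes thus set the members apart from B cells, while their shares in members and in macrophages overlapped.

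Cells on either side of the rule's thresholds differed, and by more at the Csf1r threshold than at the C1q threshold. The 89 members with a single Csf1r UMI had 3879 CPM (UMIs per 1000000 UMIs of the summed cells) of Lyz2, while 537 cells that missed the rule only for want of a Csf1r UMI had 483 CPM. The 40 members with 1 or 2 C1q UMIs had 2433 CPM of the class II gene H2-Ab1, and the 17 cells just outside, with 3 or 4 C1q UMIs, had 3857 CPM.

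Clustering of the members without the rule genes gave 5 clusters. Cluster M1 (160 cells) had Chil3, F5, Mgst1, Hp and Hspa1a among its leading genes, and held 10537 CPM of Lyz2. Cluster M2 (102 cells) had Ccr7, Spic, Ly6i, Il1rn, Ptgs2, Adgre4 and Cd274 among its leading genes, and held 5052 CPM of Lyz2. H2-Ab1 stood at 1068 CPM in M1 and 2483 CPM in M2, while Ly6c2 stood at 439 and 387 CPM in these clusters. Hspa1a stood at 3569 CPM in M1 and 807 CPM in M2, and Ccr7 at 15.2 CPM in M1 and 249 CPM in M2.

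The other 54 members were led by genes of other cells. Cluster M3 (27 cells) was led by the stromal genes Adamdec1, Dcn and Col3a1, and Scrublet marked 40.7% of it. Cluster M4 (19 cells) was led by Retnla, Lyz1, Lpl and Mrc1 with 7035 CPM of Fn1. Its monocyte genes were mixed, with 7.62 CPM of Plac8 but 853 CPM of Ccr2, 6319 CPM of Lyz2 and 697 CPM of Cd14. Cluster M5 (8 cells) held 16607 CPM of S100a9 and 647 CPM of Cxcr2, both abundant in neutrophils. The monocyte genes of M5 were mixed as well, with 1602 CPM of Plac8 but 30.8 CPM of Ccr2. As a description, the rule genes Ly6c2 and F13a1 stood at 3.81 and 522 CPM in M4 and at 1633 and 0 CPM in M5. M1 and M2, 262 cells, are called core members here. The name monocyte fits M3 less well, by its stromal genes, while M4 and M5 are less clear. Rule genes cannot bear on the name, since they chose the cells.

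The clusters were unevenly spread over mice. M1 had 33 and 44 cells in Trpv1-ADC mice and 40 and 43 in CTRL mice. M2 had 15 and 10 cells in Trpv1-ADC mice and 46 and 31 in CTRL mice. M3 had 3 and 3 cells in Trpv1-ADC mice against 11 and 10, M4 had 3 and 3 against 11 and 2, and M5 had 2 and 1 against 3 and 2 in CTRL mice. These counts are values only, since Hspa1a, a leading gene of M1, also differed between the groups.

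**Figure D1:**
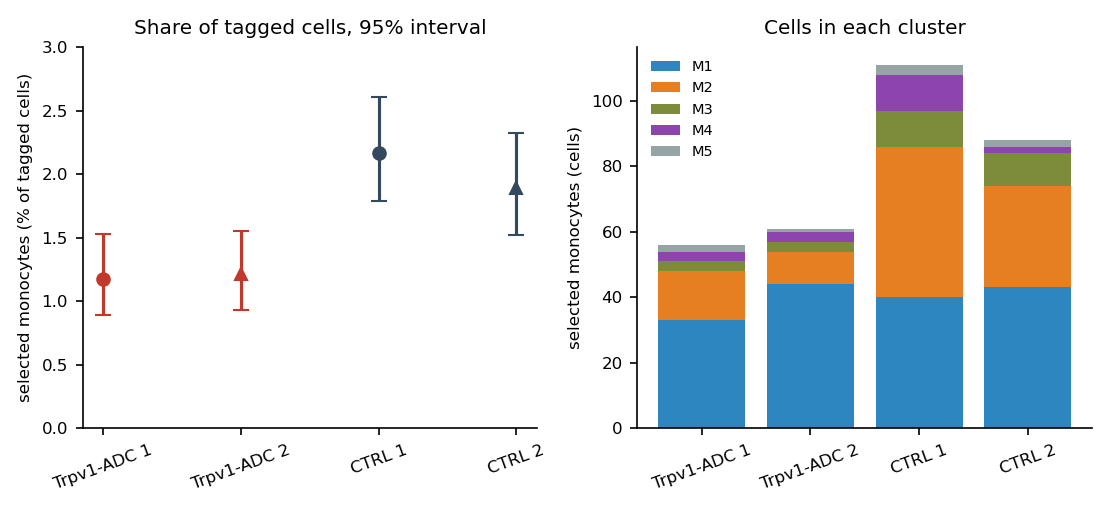
Left: selected monocytes as a percent of tagged cells in each mouse, with exact 95% binomial intervals that cover counting error only. Right: the number of selected monocytes in clusters M1 to M5 in each mouse; the Trpv1-ADC mice had 56 and 61 members and the CTRL mice 111 and 88.

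**Figure D2:**
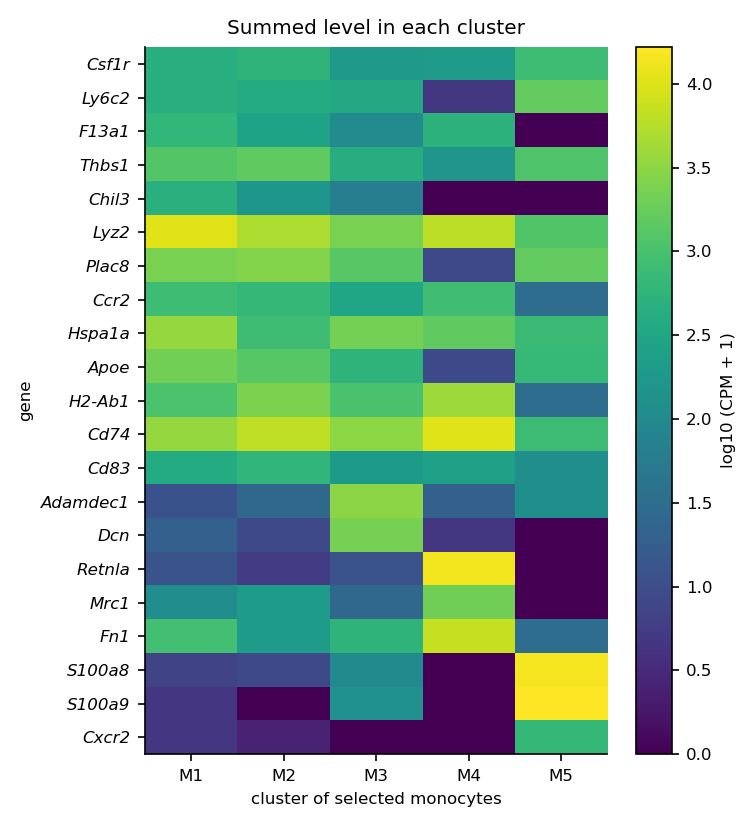
Summed level of rule genes, monocyte genes and leading genes in the 5 clusters, as log10 of CPM plus 1. Stromal Adamdec1 and Dcn stand out in M3, Retnla and Fn1 in M4, and S100a8 and S100a9 in M5.

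The monocyte share of tagged cells was lower in both Trpv1-ADC mice than in either CTRL mouse. It was 1.18% (exact 95% binomial interval 0.890 to 1.53) and 1.21% (0.927 to 1.55) in Trpv1-ADC mice, against 2.17% (1.79 to 2.61) and 1.89% (1.52 to 2.32) in CTRL mice. The means were 1.19% ± 0.0234 and 2.03% ± 0.196 (SD, n = 2 each), a difference of -0.836 percentage points. The exact two-sided permutation test over mice gave p = 0.333, the smallest p that 2 mice against 2 allow, so this test cannot reach the 0.05 threshold. Core members alone made up 1.01% and 1.07% in Trpv1-ADC mice and 1.68% and 1.59% in CTRL mice. As a share of gated myeloid cells (monocytes, C1q macrophages, type 2 dendritic cells and neutrophils), however, monocytes were 34.6% and 46.9% in Trpv1-ADC mice and 44.0% and 49.7% in CTRL mice, and these groups overlapped.

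CTRL 1 stood apart from the other 3 mice in the kind of members it gave. Of its members 38.7% had a Ly6c2 UMI, against 62.5% and 63.9% in the Trpv1-ADC mice and 68.2% in CTRL 2. After thinning, its members held a median of 16 UMIs of 4 class II genes, against 7.5 and 7 in the Trpv1-ADC mice and 8 in CTRL 2. Retnla, a secreted protein of alternatively activated macrophages, reached 3102 CPM in CTRL 1, against 775 and 1316 CPM in Trpv1-ADC mice and 513 CPM in CTRL 2. CTRL 2 in turn carried the most stromal RNA, with a summed level of 7 stromal markers of 1618 CPM, against 527 and 544 CPM in Trpv1-ADC mice and 537 CPM in CTRL 1. Of the other marker lists, 7 C1q macrophage markers outside the rule summed to 2858 and 2596 CPM in Trpv1-ADC mice and 2229 and 1720 CPM in CTRL mice. The 10 neutrophil markers summed to 459 and 617 CPM in Trpv1-ADC mice and 864 and 552 CPM in CTRL mice, while the 6 eosinophil markers were at 0 in every mouse but CTRL 1. The 7 T cell markers outside the rule summed to 61.0 and 68.8 CPM in Trpv1-ADC mice and 140 and 101 CPM in CTRL mice, with Bcl11b at 0 in CTRL 2. The 8 markers of NK or innate lymphoid cells summed to 154 and 153 CPM in Trpv1-ADC mice and 179 and 340 CPM in CTRL mice. The 5 type 1 conventional dendritic cell markers outside the rule summed to 369 and 284 CPM in Trpv1-ADC mice and 231 and 250 CPM in CTRL mice. Of the 15 lists, the C1q, T cell, NK and type 1 dendritic cell sums did not overlap between the groups. With 2 mice against 2, the smallest permutation p is 0.333, so such gaps decide nothing. Most of the C1q sum was Apoe, a called gene, at 2069 and 1799 CPM in Trpv1-ADC mice and 1192 and 1080 CPM in CTRL mice. The part of such other cells in the gene differences below was not tested, and each count is given for core members too.

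Among the rule genes themselves, Csf1r was nearly level, at 432 and 439 CPM in Trpv1-ADC mice and 425 and 420 CPM in CTRL mice. F13a1, a coagulation transglutaminase, was at 375 and 530 CPM in Trpv1-ADC mice and 469 and 396 CPM in CTRL mice. Thbs1, the adhesive glycoprotein thrombospondin 1, was at 909 and 590 CPM in Trpv1-ADC mice and 1162 and 1559 CPM in CTRL mice. Ly6c2 was at 418 and 508 CPM in Trpv1-ADC mice and 207 and 479 CPM in CTRL mice, where CTRL 1 alone was low. Chil3, a chitinase-like protein of classical monocytes, was at 565 and 308 CPM in Trpv1-ADC mice and 147 and 223 CPM in CTRL mice. Vcan, a matrix proteoglycan, was between 142 and 197 CPM in the 4 mice.

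Between the groups, 17 genes rose and 11 fell in monocytes of Trpv1-ADC mice out of 6581 genes tested outside the rule. This was 0.425% of the genes, 0.258% up and 0.167% down, by edgeR's quasi-likelihood test on UMIs summed per mouse at a Benjamini-Hochberg adjusted p under 0.05. The median log2 fold change over all genes tested was -0.01, and 3239 of the 6581 were positive. With the rule genes included, 662 of 6587 genes had an unadjusted p under 0.05, the share to set beside the list counts below. In all 28 genes both Trpv1-ADC mice lay apart from both CTRL mice in CPM. The genes were chosen by a test of this same difference, so the gap adds no support. Among the genes that rose were the inducible heat shock genes Hspa1a and Hspa1b, the stress-induced factors Jun and Atf3, lysozyme and apolipoprotein E, and among those that fell were Plxdc1, Raph1, Nrg1 and Cd83.

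Both inducible heat shock genes rose. Hspa1a and Hspa1b encode near-identical inducible HSP70 chaperones, which refold proteins after heat or other stress, and reads cannot be assigned to one copy with certainty. Hspa1a had 3608 and 4387 CPM in Trpv1-ADC mice, against 1170 and 1571 CPM in CTRL mice, a log2 fold change of 1.59 ± 0.16 (SE) with an edgeR adjusted p of 0.00257. Hspa1b had 3366 and 3885 CPM in Trpv1-ADC mice, against 1272 and 1826 CPM in CTRL mice (log2 fold change 1.27 ± 0.17, edgeR adjusted p = 0.0209). The sum of both copies, which does not depend on how reads were split, was 6975 and 8272 CPM in Trpv1-ADC mice and 2442 and 3397 CPM in CTRL mice, with no overlap. The copies lie on the minus strand of chromosome 17, at chr17:34969190-34972156 (Hspa1a) and chr17:34956436-34959238 (Hspa1b) in GRCm38. The 250 bases before each gene start are printed because the copies share them as well as their rise. Capitals mark GAANNTTC, the paired core of the element that heat shock factor 1 is known to bind (the motif reads the same on both strands):

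Hspa1a, chr17:34972157-34972406, minus strand: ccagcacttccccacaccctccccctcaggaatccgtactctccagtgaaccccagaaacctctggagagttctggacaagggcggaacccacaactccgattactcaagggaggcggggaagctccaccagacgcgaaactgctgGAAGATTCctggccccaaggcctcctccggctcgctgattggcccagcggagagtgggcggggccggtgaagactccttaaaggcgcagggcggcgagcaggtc

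Hspa1b, chr17:34959239-34959488, minus strand: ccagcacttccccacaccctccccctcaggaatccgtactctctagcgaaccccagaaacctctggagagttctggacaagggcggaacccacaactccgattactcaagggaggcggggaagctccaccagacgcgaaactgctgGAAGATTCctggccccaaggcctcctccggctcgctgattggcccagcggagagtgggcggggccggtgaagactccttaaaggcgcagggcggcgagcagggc

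These sequences, from RefSeq (GRCm38.p6), are identical at 247 of 250 bases, and each holds 1 match, which begins at position -104 counted from the gene start. The motif occurs in the same window of 2199 of 32851 mouse promoters (6.69%). Of the 24 genes on the heat shock list, 17 had a promoter entry and 7 of these held the motif, which describes the letters and is no evidence of binding.

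Over the heat shock list, 2 of 22 tested genes rose and none fell, with 21 positive and a median log2 fold change of 0.51, against -0.01 over all genes. An unadjusted edgeR p under 0.05 was found for 9 of the 22, all higher, against 662 of 6587 over all genes. The summed level of the list was 15860 and 16745 CPM in Trpv1-ADC mice and 7932 and 9875 CPM in CTRL mice. The constitutive chaperone Hspa8 had 2539 and 2276 CPM in Trpv1-ADC mice and 1456 and 1728 CPM in CTRL mice, with an edgeR adjusted p of 0.0547; DESeq2 called it, and Hsp90aa1 with both inducible genes, so that it called 4 genes of the list. The HSP110 gene Hsph1 had 206 and 251 CPM in Trpv1-ADC mice and 104 and 129 CPM in CTRL mice, with an edgeR adjusted p of 0.0681. Among core members, where 0.339% of all genes rose, 5 of 21 list genes rose, namely Hspa1a, Hspa1b, Hspa8, Hsp90aa1 and Dnajb1. In M1 cells alone, where 0.329% of all genes were called in either direction, 4 of 20 rose, and Hspa1a is itself a leading gene of that cluster. In M2 cells alone 0 genes of any kind were called by edgeR, and Hspa1a had a log2 fold change of 1.24 (adjusted p = 0.499).

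The higher Hspa1a was not confined to monocytes. In C1q macrophages of the same mice Hspa1a had 4021 and 3477 CPM in Trpv1-ADC mice and 1964 and 2666 CPM in CTRL mice (log2 fold change 0.67 ± 0.20, edgeR adjusted p = 0.168). Type 2 dendritic cells had 2394 and 3068 CPM of Hspa1a in Trpv1-ADC mice and 733 and 645 CPM in CTRL mice. B cells had 1351 and 2385 CPM in Trpv1-ADC mice and 747 and 632 CPM in CTRL mice, and T cells had 1178 and 1509 CPM against 891 and 1114 CPM in CTRL mice. In each of these cell types both Trpv1-ADC mice lay above both CTRL mice. The difference in monocytes exceeded that in macrophages by 0.90 ± 0.24 on the log2 scale, which did not pass the edgeR test of the interaction (adjusted p = 0.527).

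Jun, Atf3 and Rhob, which many cells induce early under stress, also rose. Jun, a core AP-1 subunit, had 629 and 699 CPM in Trpv1-ADC mice and 316 and 377 CPM in CTRL mice (log2 fold change 0.98 ± 0.16, edgeR adjusted p = 0.0209). Atf3, a stress-induced repressor of the ATF family, had 938 and 717 CPM in Trpv1-ADC mice and 460 and 343 CPM in CTRL mice (1.08 ± 0.19, edgeR adjusted p = 0.0339). Rhob, an endosomal GTPase, had 416 and 442 CPM in Trpv1-ADC mice and 188 and 186 CPM in CTRL mice (1.24 ± 0.17, edgeR adjusted p = 0.00788). All 3 genes had a gap between the groups, which their choice by this test makes likely. Yet the list of immediate early and AP-1 genes did not rise as a whole: 2 of 27 rose, 15 were positive and the median was 0.03. An unadjusted edgeR p under 0.05 was found for 10 of the 27, 5 higher and 5 lower, against 662 of 6587 over all genes. Nr4a3, an orphan nuclear receptor, had 90.4 and 53.3 CPM in Trpv1-ADC mice and 190 and 155 CPM in CTRL mice (edgeR adjusted p = 0.0913). Klf2, a zinc-finger transcription factor, had 744 and 768 CPM in Trpv1-ADC mice and 525 and 361 CPM in CTRL mice (edgeR adjusted p = 0.0929), and it rose past the threshold among core members (adjusted p = 0.0198).

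Lysozyme was the most abundant gene to rise. Lyz2 had 9152 and 10255 CPM in Trpv1-ADC mice and 5838 and 6261 CPM in CTRL mice (log2 fold change 0.72 ± 0.10, edgeR adjusted p = 0.00788). Its log2 fold change was 0.45 in M1 alone (edgeR adjusted p = 0.0281) and 0.31 in M2 alone (edgeR adjusted p = 0.868). M1, the cluster with more Lyz2, made up 58.9% and 72.1% of members in Trpv1-ADC mice and 36.0% and 48.9% in CTRL mice. The part of this cluster make-up in the rise was not tested. Among 26 tested classical monocyte genes only Lyz2 passed, the list having a median of 0.27 with 15 positive. In this list 13 had an unadjusted edgeR p under 0.05, 9 higher and 4 lower in Trpv1-ADC mice, against 662 of 6587 over all genes. Itgam, Emilin2, Cd44 and Cd14 were lower, with log2 fold changes of -0.63, -0.45, -0.41 and -0.38 and edgeR adjusted p between 0.328 and 0.417. Lst1, Ifitm3 and Fcgr3 of that list had log2 fold changes of 0.66, 0.63 and 0.62 with edgeR adjusted p of 0.191, 0.207 and 0.237. Ccr2 had 710 and 825 CPM in Trpv1-ADC mice and 691 and 609 CPM in CTRL mice. It is shown as the homing receptor of blood monocytes, and it did not pass the test.

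Genes of the path to macrophages went both ways. Apoe, a lipid carrier made by tissue macrophages, had 2069 and 1799 CPM in Trpv1-ADC mice and 1192 and 1080 CPM in CTRL mice (log2 fold change 0.81 ± 0.13, edgeR adjusted p = 0.0209). Its log2 fold change was 0.65 in M1 alone (edgeR adjusted p = 0.664) and 0.25 in M2 alone (edgeR adjusted p = 0.831). Aif1, the actin-binding protein IBA1, had 416 and 399 CPM in Trpv1-ADC mice and 227 and 228 CPM in CTRL mice (0.88 ± 0.17, edgeR adjusted p = 0.0390). Cd83, a surface protein of antigen-presenting cells that is induced on activation, had 267 and 266 CPM in Trpv1-ADC mice and 534 and 459 CPM in CTRL mice (-0.86 ± 0.17, edgeR adjusted p = 0.0464). So 2 of 21 tested maturation genes rose and 1 fell by edgeR, with a median of 0.00. An unadjusted edgeR p under 0.05 was found for 7 of the 21, 5 higher and 2 lower, against 662 of 6587 over all genes. DESeq2 called Apoe and Folr2 of this list, but not Aif1 (adjusted p = 0.0696) or Cd83 (adjusted p = 0.0530). Folr2, a folate receptor of resident macrophages, had 157 and 79 UMIs in Trpv1-ADC mice and 26 and 5 UMIs in CTRL mice, with an edgeR adjusted p of 0.309 in all members and 0.0474 in core members. Of 9 tested class II genes 0 passed edgeR's test, with a median of 0.12 and 1 at an unadjusted p under 0.05, the antigen-processing thiol reductase Ifi30, which DESeq2 called. H2-Ab1 had 1931 and 1524 CPM in Trpv1-ADC mice and 2261 and 1263 CPM in CTRL mice, where the groups overlapped.

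Among the other genes that rose, Gm11290, a long noncoding RNA at chr13:22014468-22020738 (GRCm38, plus strand), had the smallest p. It had 789 and 648 CPM in Trpv1-ADC mice and 170 and 243 CPM in CTRL mice (log2 fold change 1.85 ± 0.20, edgeR adjusted p = 0.00257). Its log2 fold change was 2.13 among members with a Ly6c2 UMI and 0.35 among those without one (edgeR adjusted p = 0.880), and CTRL 1 had the fewest members with one by share. Polr2l, a small subunit of RNA polymerases, had 405 and 371 CPM in Trpv1-ADC mice and 166 and 180 CPM in CTRL mice (1.20 ± 0.18, edgeR adjusted p = 0.0129). Dhx40, a putative RNA helicase, had 323 and 331 CPM in Trpv1-ADC mice and 110 and 157 CPM in CTRL mice (1.34 ± 0.21, edgeR adjusted p = 0.0154). Each of these 3 genes stood in both Trpv1-ADC mice at over 2 times its level in either CTRL mouse. Chka, which makes phosphocholine for membranes, had 208 and 328 CPM in Trpv1-ADC mice and 101 and 111 CPM in CTRL mice (1.38 ± 0.23, edgeR adjusted p = 0.0272). Slc28a2, a sodium-coupled nucleoside transporter, had 111 and 195 CPM in Trpv1-ADC mice and 41.9 and 54.7 CPM in CTRL mice (1.71 ± 0.30, edgeR adjusted p = 0.0339). Ednrb, Tmcc1 and Dus2 also rose, by 2.53, 1.04 and 2.25 on the log2 scale, though Ednrb, the endothelin B receptor, and Dus2, a tRNA-modifying enzyme, rested on 7 and 10 UMIs each in the CTRL mice. Dus2, like Hspa1a, was among the leading genes of cluster M1.

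Of the genes that fell, Plxdc1, a plexin-domain membrane protein, had the smallest p. It had 3 and 6 UMIs (6.78 and 13.3 CPM) in Trpv1-ADC mice and 65 and 58 UMIs (82.5 and 85.8 CPM) in CTRL mice (log2 fold change -2.99 ± 0.40, edgeR adjusted p = 0.00788). Raph1, the actin regulator lamellipodin, had 76.9 and 79.9 CPM in Trpv1-ADC mice and 203 and 234 CPM in CTRL mice (-1.43 ± 0.22, edgeR adjusted p = 0.0154). Nrg1, a ligand of ErbB receptors, had 58.8 and 95.4 CPM in Trpv1-ADC mice and 223 and 204 CPM in CTRL mice (-1.43 ± 0.25, edgeR adjusted p = 0.0272). Each of these genes was at under 0.5 of the lower CTRL level in both Trpv1-ADC mice. Fbxo47, an F-box protein gene, had 1 and 0 UMIs in Trpv1-ADC mice and 22 and 40 UMIs in CTRL mice, a CTRL over Trpv1-ADC ratio of 37.8 with an exact 95% counting interval of 6.54 to 1517 (edgeR adjusted p = 0.0323). Antxr2, a receptor of anthrax toxin that binds matrix, had 443 and 464 CPM in Trpv1-ADC mice and 745 and 960 CPM in CTRL mice (-0.87 ± 0.16, edgeR adjusted p = 0.0358). Its log2 fold change was -0.19 in M1 alone (edgeR adjusted p = 0.810) and -1.70 in M2 alone (edgeR adjusted p = 0.0600), the cluster with fewer cells in Trpv1-ADC mice. The small GTPase gene Arl4c, the membrane protein gene Basp1, the mitochondrial ribosome gene Mrps28, the Src-family kinase gene Fyn and the interferon-induced Ifitm1 fell by 1.30, 1.38, 1.08, 1.04 and 1.65 on the log2 scale. Fyn stood at 588 to 712 CPM in T cells of the 4 mice, above its level in members, and the part of T cell RNA in its fall was not tested.

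Fbxo47 (chr11:97853826-97884154) and Plxdc1 (chr11:97923238-97986444) are neighbours on the minus strand of chromosome 11 in GRCm38, 39084 bases apart with 0 protein-coding gene starts between them. With Dhx40 they made 3 called genes among 559 tested on chromosome 11, or 0.537%, near the 0.425% over all genes. Trpv1 lies on the same chromosome, at chr11:73234292-73261242. The noncoding AA465934, at chr11:83291699-83294632, had 11 and 10 UMIs in Trpv1-ADC mice and 2 and 1 UMIs in CTRL mice (edgeR adjusted p = 0.133).

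**Figure D3:**
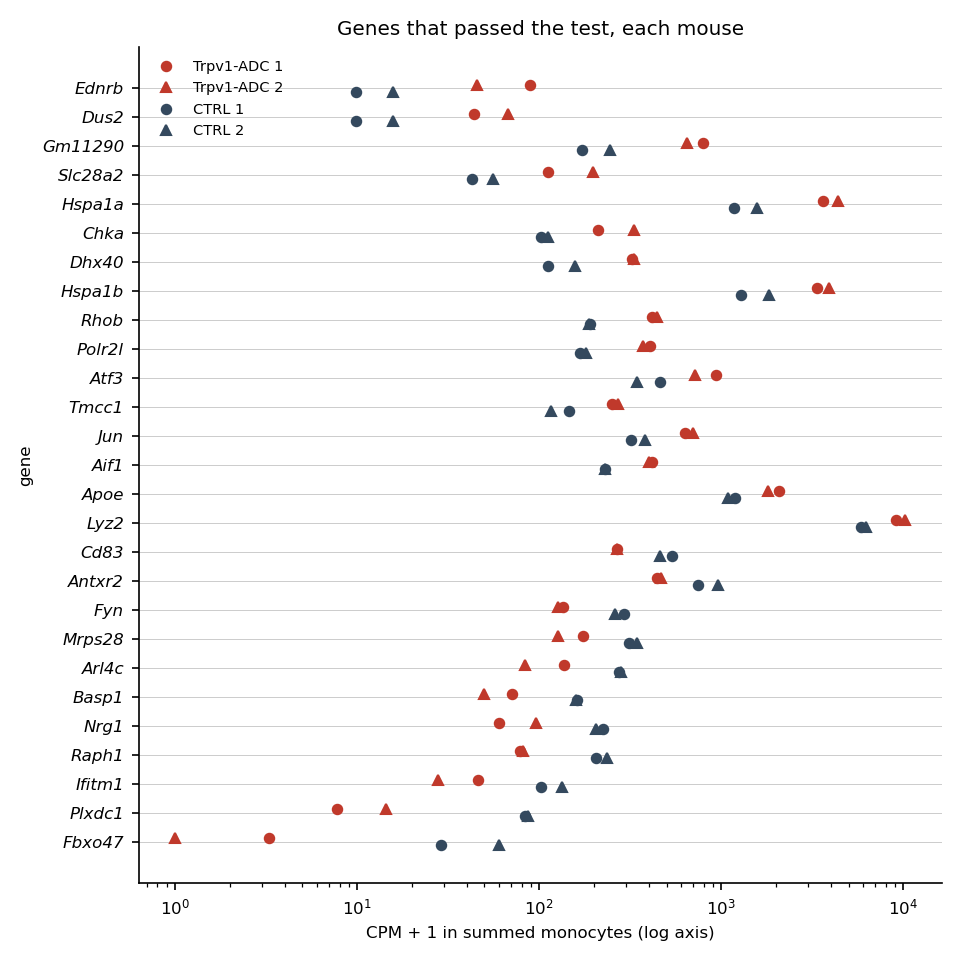
Level of 27 of the 28 genes that passed the test, as CPM plus 1 on a log axis, with 1 point for each mouse. The Trpv1-ADC points lie on 1 side of the CTRL points in every gene shown, with Lyz2 the most abundant and Fbxo47 the least. The genes were chosen by a test of this difference, so the gap is no further support.

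These calls depended on which mouse and which cells were used. A fit without 1 mouse leaves 1 group with a single mouse, which is then assumed to vary like the pair in the other group. Leaving out Trpv1-ADC 1 ended 11 calls, among them those of Aif1, Antxr2, Apoe, Atf3, Cd83, Ednrb, Fyn, Hspa1b, Nrg1 and Tmcc1, with edgeR adjusted p between 0.0554 (Hspa1b) and 0.174 (Ednrb). Leaving out Trpv1-ADC 2 ended those of Antxr2, Arl4c, Basp1, Cd83, Chka, Dus2, Fbxo47, Fyn, Ifitm1, Mrps28, Slc28a2 and Tmcc1, with edgeR adjusted p between 0.0627 (Antxr2) and 0.221 (Dus2). Without CTRL 2 the calls of Antxr2, Fbxo47 and Tmcc1 were lost, with adjusted p of 0.0617, 0.504 and 0.0699, and without CTRL 1 that of Cd83 was lost, at 0.0692. The 9 genes called in all 4 of these fits were Dhx40, Gm11290, Hspa1a, Jun, Lyz2, Plxdc1, Polr2l, Raph1 and Rhob. The number of called genes was 54 without Trpv1-ADC 1, 44 without Trpv1-ADC 2, 138 without CTRL 1 and 101 without CTRL 2.

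Core members gave 19 genes that rose and 28 that fell of 5608 tested (0.838%, with 0.339% up and 0.499% down). Of the 28 genes called over all members, 23 were called again in the core, and the log2 fold change of Jun grew to 1.57 and that of Atf3 to 1.38. Clec7a, the beta-glucan receptor dectin-1, fell among core members, and had 405 and 233 CPM in Trpv1-ADC mice and 764 and 812 CPM in CTRL mice over all members. Il1r2, a decoy receptor for interleukin 1, fell there as well, and had 179 and 129 CPM in Trpv1-ADC mice and 306 and 274 CPM in CTRL mice over all members. These 2 genes were chosen after their values were seen. Cluster M1 alone gave 14 calls among 4256 genes (0.329%), of which Hspa1a, Hspa1b, Rhob, Lyz2, Slc28a2, Arl4c, Nrg1, Plxdc1 and Raph1 were called over all members too. Cluster M2 alone, with 15 and 10 cells in Trpv1-ADC mice, gave 0 calls by edgeR, with 306 of its genes at an unadjusted p under 0.05; no other tool was run on it.

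**Figure D4:**
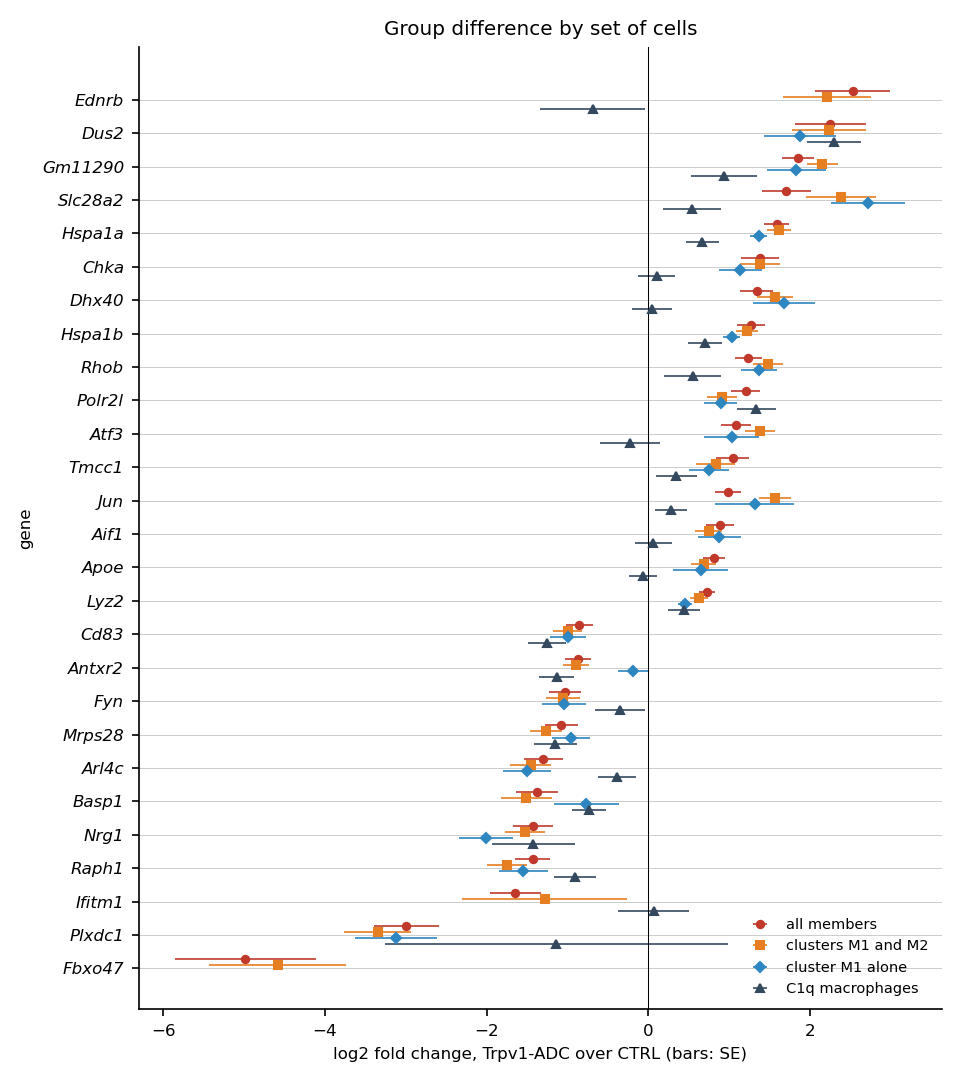
Log2 fold change of 27 of the 28 genes, Trpv1-ADC over CTRL, with its standard error, in all members, in clusters M1 and M2, in cluster M1 alone and in C1q macrophages. Missing points are genes with too few UMIs to test; Hspa1a stands at 1.59 in all members, 1.61 in the core, 1.36 in M1 and 0.67 in macrophages.

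Genes of the type I interferon list, which does not hold Ifitm1, were mostly positive without a single call. Of 37 tested genes of the type I interferon list, 31 were positive and the median log2 fold change was 0.48, but 0 passed edgeR's test. In this list 11 had an unadjusted p under 0.05, 10 of them higher in Trpv1-ADC mice, against 662 of 6587 over all genes. DESeq2 called 0 of them. The list summed to 3192 and 4231 CPM in Trpv1-ADC mice and 2379 and 3596 CPM in CTRL mice, and these groups overlapped. Trim30a, a restriction factor of the TRIM family, had 215 and 213 CPM in Trpv1-ADC mice and 103 and 148 CPM in CTRL mice (edgeR adjusted p = 0.191). Bst2, the virus-tethering tetherin, had 210 and 202 CPM in Trpv1-ADC mice and 90.1 and 149 CPM in CTRL mice (edgeR adjusted p = 0.232), and Ifi209 had 111 and 118 CPM against 68.5 and 68.1 CPM in CTRL mice (edgeR adjusted p = 0.270). Ifit1 had 3 and 1 UMIs in Trpv1-ADC mice against 16 and 18 UMIs in CTRL mice (edgeR adjusted p = 0.272). The list was mostly positive in C1q macrophages too, with 28 of 30 positive, a median of 0.62 and 0 calls by edgeR.

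Genes of signalling through cAMP, the second messenger of many neuropeptide and catecholamine receptors, were mostly negative. Of 26 tested genes of the cAMP and CREB response, 6 were positive, the median was -0.23 and 0 passed edgeR's test. In this list 9 had an unadjusted p under 0.05, all lower in Trpv1-ADC mice, against 662 of 6587 over all genes. DESeq2 called 0 of them. Crem, a cAMP-responsive repressor, had 52.0 and 75.4 CPM in Trpv1-ADC mice and 161 and 136 CPM in CTRL mice (edgeR adjusted p = 0.0852). Pde4d, which degrades cAMP, had 56.5 and 35.5 CPM in Trpv1-ADC mice and 90.1 and 115 CPM in CTRL mice (edgeR adjusted p = 0.191). Vegfa, a growth factor for vessels on this list, had 70.1 and 59.9 CPM in Trpv1-ADC mice and 104 and 127 CPM in CTRL mice (edgeR adjusted p = 0.309). The groups stayed apart in these 3 genes, which were picked for their small p. The list was also mostly negative in C1q macrophages, with 3 of 25 positive and a median of -0.62. There 2 of its genes fell by edgeR, where 0.766% of all genes were called in either direction.

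Of 28 listed receptors for neuropeptides and transmitters, 7 had enough UMIs to test and 0 passed edgeR's test, with 1 at an unadjusted p under 0.05 and 0 called by DESeq2. Ramp1, the partner chain of the receptor for calcitonin gene-related peptide, had 49.7 and 64.3 CPM in Trpv1-ADC mice and 52.0 and 53.3 CPM in CTRL mice, and the groups overlapped. Ramp3, a related partner chain, had 11 and 6 UMIs in Trpv1-ADC mice and 32 and 23 UMIs in CTRL mice (edgeR adjusted p = 0.498). Htr7, a serotonin receptor, had 19 and 11 UMIs in Trpv1-ADC mice and 63 and 27 UMIs in CTRL mice (edgeR adjusted p = 0.541).

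Of 22 tested NF-kB genes 0 passed edgeR's test, 7 were positive and the median was -0.15; 5 had an unadjusted p under 0.05 and DESeq2 called 1, Rel. Rel, the c-Rel subunit, had 631 and 481 CPM in Trpv1-ADC mice and 963 and 957 CPM in CTRL mice (edgeR adjusted p = 0.0731), and fell past the threshold among core members (adjusted p = 0.0386). Nfkb1, the p105 precursor of p50, had 520 and 393 CPM in Trpv1-ADC mice and 769 and 675 CPM in CTRL mice (edgeR adjusted p = 0.203). Nfkbie, an inhibitor of the pathway, and Sod2, an antioxidant target of it, had log2 fold changes of -0.58 and 0.50 with edgeR adjusted p of 0.345 and 0.358. In C1q macrophages 4 of 22 list genes were positive, with a median of -0.50. There 4 fell by edgeR, where 0.766% of all genes were called in either direction.

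Chemokine ligands gave 0 calls by edgeR among 15 tested genes, with 10 positive and a median of 0.34. In this list 2 had an unadjusted p under 0.05, near the share of 662 of 6587 over all genes, and DESeq2 called 0. Ccl2, which draws CCR2-bearing monocytes, had 235 and 284 CPM in Trpv1-ADC mice and 203 and 152 CPM in CTRL mice (edgeR adjusted p = 0.345). Ccl3, an inflammatory chemokine, had 249 and 118 CPM in Trpv1-ADC mice and 95.1 and 51.8 CPM in CTRL mice (edgeR adjusted p = 0.420). Ccl4 and Ccl9 had log2 fold changes of 0.95 and 0.34 with edgeR adjusted p of 0.547 and 0.541. Of 23 inflammatory cytokines and sensors 0 passed edgeR's test, 3 had an unadjusted p under 0.05, again near the share over all genes, and DESeq2 called 0. Il1b, the precursor of interleukin 1 beta, had 1883 and 905 CPM in Trpv1-ADC mice and 1765 and 1914 CPM in CTRL mice, with overlap.

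The other 16 lists, among them those for lysosomes, coagulation, growth factor receptors, the cell cycle and the unfolded protein response, held no called gene but Lyz2 and Cd83. Their medians lay between -0.42 for the cell cycle and 0.27 for phagocyte oxidase and lysozyme defence. Each had between 1 and 7 genes at an unadjusted edgeR p under 0.05, against 662 of 6587 over all genes. The largest shares were 4 of 8 for extracellular ATP and adenosine (2 higher, 2 lower), 6 of 15 for phagocyte oxidase and lysozyme defence (all higher) and 7 of 20 for the unfolded protein response (4 higher, 3 lower). The smallest was 1 of 11, for non-classical monocyte genes and for iron and haem.

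**Figure D5:**
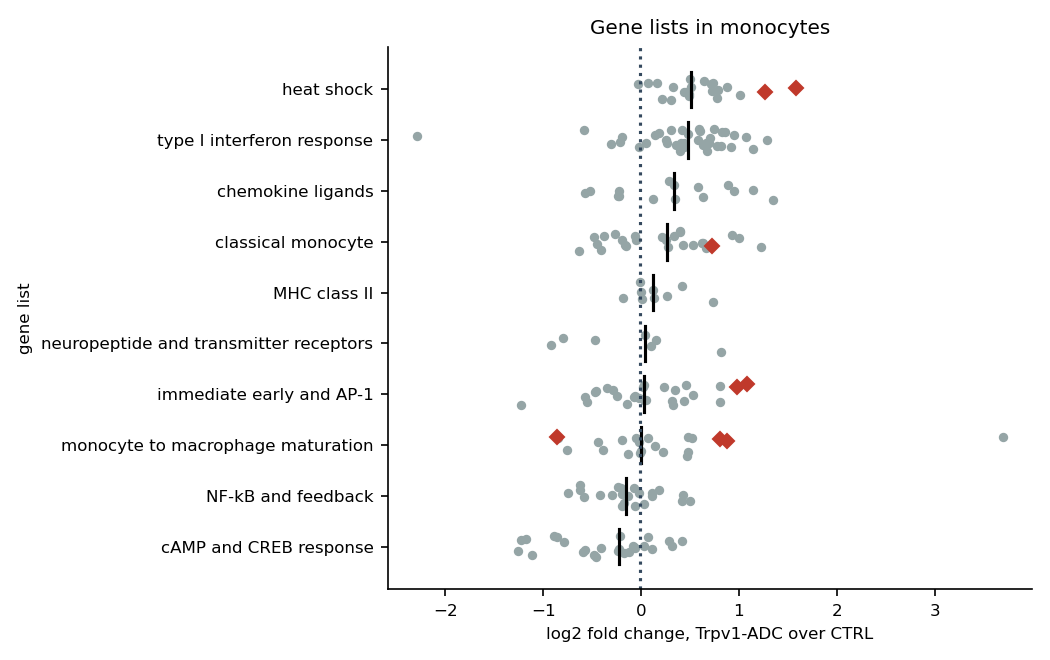
Log2 fold change, Trpv1-ADC over CTRL, of each tested gene in 10 lists, with a bar at the list's median, red diamonds for genes that passed the test and a dotted line at the median of all genes. Heat shock genes have a median of 0.51 and genes of the cAMP and CREB response a median of -0.23.

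Set beside C1q macrophages of the same mice (276 cells), monocytes had 441 genes higher (5.83%) and 353 lower (4.67%) of 7560 tested, with the rule genes left out. Both gates chose cells on related genes, so this contrast is a description of the 2 gates. Of 26 classical monocyte genes 15 were higher and 2 lower in monocytes, including Plac8 at a log2 difference of 2.31, and of 29 maturation genes 18 were lower, including Ms4a7 at -4.18. Of 11 class II genes 6 were lower in monocytes, with Cd74 at -1.39. For the group difference, macrophages gave 52 calls of 6788 genes (0.766%). Both comparisons use the same 4 mice, and 4 of the 28 genes were called in macrophages as well: Polr2l with a log2 fold change of 1.34, Dus2 with 2.29, Antxr2 with -1.13 and Cd83 with -1.25. Atf3 had 938 and 717 CPM in monocytes of Trpv1-ADC mice but 742 and 310 CPM in their macrophages, where CTRL mice had 669 and 542 CPM, and the interaction did not pass edgeR's test (adjusted p = 0.215). The interaction test called 1 of 7560 genes (0.0132%), S100a9, with 366 at an unadjusted p under 0.05, so none of the 28 genes was shown to change in monocytes alone.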

How the data were processed

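CD45+ cecum cells of 2 Trpv1-ADC and 2 CTRL mice were hashed and run as 1 droplet library. The deposited files hold raw counts of UMIs for each gene and barcode, and raw counts of each hashtag. Per the submitters' processing notes Cell Ranger, Seurat and mm10 were used; versions and settings are not given in the sources used here. One label gives a 5' and another a 3' chemistry, so which transcript end was counted is not settled.

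Barcodes were kept with at least 500 UMIs, at most 10% mitochondrial UMIs, and a top hashtag count of at least 10 and at least 3 times the next. Doublets were removed in the main analysis only through this hashtag rule; Scrublet (threshold 0.389) marked 9.38% of tagged cells and 42.2% of 2998 hashtag doublets, and its calls were left out as an alternative. UMIs were summed over members of each mouse, since mice and not cells are the replicates, and tested with edgeR 4.0.16 (quasi-likelihood, TMM, filterByExpr, robust) in R 4.3.3, with DESeq2 1.42.0 as an alternative. The monocyte and macrophage fit had mouse as a block. The fits were tested on simulated data with a dispersion common to all genes. The monocyte fit recovered 1 of 77 changes of 1.5-fold, 12 of 58 of 2-fold and 57 of 62 of 4-fold, with 2 false calls among 6447 unchanged genes. The interaction fit recovered 0 of 69, 4 of 62 and 29 of 69 changes of these sizes. A gene that did not pass the monocyte fit may thus still have changed by 2-fold or more. In the interaction fit, a gene that did not pass may still differ by 4-fold. Members were clustered with scanpy 1.11.5 and leidenalg 0.10.2 (1500 variable genes, 15 components, resolution 0.5).

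Named genes were the 12 smallest p in each direction among called genes, other called genes, called list members and, for lists described, the 4 smallest p as values. The members and all lists were chosen with earlier results of these data known. Binomial and Poisson intervals cover counting error only. Values of a few genes are not reported here.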

Additional observations from a re-analysis of the deposited data

Results flagged for a closer look

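S100a9, a calcium-binding protein abundant in neutrophils, was the gene whose group difference differed between monocytes and C1q macrophages by edgeR's test of the interaction: -6.40 ± 0.66 (SE) on the log2 scale, monocytes minus macrophages, adjusted p = 0.00115. In monocytes it had 71 and 123 UMIs in Trpv1-ADC mice and 262 and 124 UMIs in CTRL mice, while in macrophages it had 92 and 56 UMIs in Trpv1-ADC mice and 2 and 0 UMIs in CTRL mice. Its partner S100a8 had 44 and 71 UMIs in monocytes of Trpv1-ADC mice and 282 and 110 UMIs in those of CTRL mice. Among the members, cluster M5, with 8 cells, held 16607 CPM of S100a9, against 3.58 CPM in M1 and 0 in M2. The part of single neutrophil-like cells or of free RNA in this value was not tested. Without Trpv1-ADC 1 the interaction test called 0 genes.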

How the results depend on the processing

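The monocyte share was lower in Trpv1-ADC mice under all 7 other settings, by 0.484 (stricter gate) to 1.18 (hashtag at least 10 times the next) percentage points of tagged cells, by 1.34 without T cells in the denominator and by 6.14 among gated myeloid cells, and by 0.698 to 0.975 with 1 mouse left out. The count of changed genes, 28, was 28 with RLE factors, 24 with DESeq2 (16 of them among the 28), 32 without Scrublet calls (25), 32 with the stricter gate (20) and 20 at 5% mitochondrial UMIs (19). It was 167 without a low-count filter, 9 without robust estimation, 52 with the stricter hashtag, 10 with equal cell numbers, 2 and 7 among members with and without a Ly6c2 UMI, and, in settings chosen after seeing the data, 47 in core members, 14 in M1 and 0 in M2. It ranged between 44 and 138 with 1 mouse left out; the cause was not tested. None of the 28 genes turned its direction in any setting where it was tested. With the mouse number as replicate block edgeR called 0 genes, 559 having an unadjusted p under 0.05; the numbers are not known to pair mice, and deviations of same-numbered mice correlated at 0.042 over 6587 genes. Leaving out 1 mouse gave between 506 and 628 genes that differ between monocytes and macrophages, and between 0 and 39 for the interaction, which was 38 without a low-count filter and 4 without Scrublet calls. Uncalled genes turned in M2 alone (log2 fold changes of -0.016 for Ccl2, -0.58 for Ccl9, -0.21 for Hsph1 and 0.39 for Vegfa), in M1 alone (0.67 for Htr7 and -0.35 for Ramp1) and, for Ramp1, with the stricter hashtag (-0.094) and with 1 mouse left out (-0.012 to 0.31). The 56 and 61 members of the Trpv1-ADC mice limit what low genes can show.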

Other observations

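Core members (clusters M1 and M2) brought in called genes that all members together did not, named here after their values were seen, with levels over all members. Olr1, the scavenger receptor LOX-1, fell in the core, with 3 and 4 UMIs in Trpv1-ADC mice and 31 and 26 UMIs in CTRL mice. Entpd1, the ectonucleotidase CD39, had 222 and 193 CPM in Trpv1-ADC mice and 302 and 370 CPM in CTRL mice, and fell in the core. Lgmn, a lysosomal protease, had 305 and 353 CPM in Trpv1-ADC mice and 502 and 501 CPM in CTRL mice, and Slc16a3, a lactate exporter, had 74.6 and 71.0 CPM in Trpv1-ADC mice and 129 and 141 CPM in CTRL mice, both falling in the core. Ifi203, an interferon-induced gene, rose in the core, with 183 and 189 CPM in Trpv1-ADC mice and 92.6 and 107 CPM in CTRL mice.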
